A study of Mus musculus with 12 samples.

Results

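The genes described here sense, release, store and export cholesterol: Srebf2, Scap, Insig1, Npc1, Npc2, Soat1, Nr1h2, Abca1 and Abcg1. They were chosen by name, as 9 of the 21937 genes in the deposited table, and each was found as 1 row with a value in all 12 samples. The samples were a light membrane fraction of brain in which myelin had been enriched, taken from male wild type mice of the inbred strain c57Bl6/N, with no treatment. Each of 4 ages had 3 samples: postnatal days 18 and 75, called P18 and P75, and 6 and 24 months. Whether the samples of an age are from different animals is not in the labels, so p-values measure only the spread between these samples, which may be technical. The RNA comes from the whole fraction, so fewer cells of a type and less RNA per cell cannot be told apart.

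Cholesterol is a main lipid of myelin, and because it does not cross the blood-brain barrier in lipoproteins, brain cells make their own and pass it between them. When sterol is scarce in the endoplasmic reticulum, SCAP escorts the transcription factor SREBP-2, the product of Srebf2, to the Golgi apparatus, where it is cut and released to the nucleus. When sterol is plentiful, INSIG1 holds SCAP back. Cholesterol taken up by a cell is freed in lysosomes and leaves them through NPC2 and NPC1, and SOAT1 esterifies any excess for storage. Oxysterols activate the liver X receptor LXR-beta, encoded by Nr1h2, whose known targets include the efflux pumps ABCA1 and ABCG1.

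Depth was 20299052 to 27214385 reads per sample, and 16949 to 17261 genes were detected. Values are normalised read counts, reads per gene divided by 1 size factor per sample. All 9 genes passed the filter on low values. Soat1 had the fewest reads of them, and its precision is the lowest. P18 replicate 3 stood apart from its group: its chi-square per degree of freedom over genes was 59.7 and 131.2 against the other P18 samples, which gave 24.7 against each other, and pairs at later ages gave 9.17 to 51.0. Oligodendrocyte markers other than Mbp summed to 332540 to 599120 at P18, the highest of the 4 ages, and every one of the 9 markers was above 0 in every sample. The summed values of 10 neuronal markers, 179310 to 230750, and of 10 astrocyte markers, 99807 to 120800, show RNA of other cell types in the fraction at all ages.

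Because Srebf2 and Insig1 are themselves known sterol-regulated genes and Abca1 a known LXR target, stretches of their promoters are shown with the short motifs found in them. The sequences are from RefSeq on GRCm38.p6, are written 5′ to 3′ on the gene's strand, and have the motif letters in capitals. The reads had been counted on mm9, so the coordinates only locate the sequence. Srebf2, chr15:82147094-82147179, plus strand, holds TCACNCCA (a form of the sterol regulatory element) as TCACCCCA at positions -162 to -155 from the transcription start, and CCAAT on the opposite strand at -135 to -131. Insig1, chr5:28071187-28071356, plus strand, holds CCAAT on the opposite strand at -216 to -212 and the E-box CACGTG, a motif of basic helix-loop-helix factors, at -101 to -96. Abca1, chr4:53159911-53160060, minus strand, holds the same E-box at -147 to -142 and TATAAA at -29 to -24.
Srebf2: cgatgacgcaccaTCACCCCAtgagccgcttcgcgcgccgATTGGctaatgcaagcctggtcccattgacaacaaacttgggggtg
Insig1: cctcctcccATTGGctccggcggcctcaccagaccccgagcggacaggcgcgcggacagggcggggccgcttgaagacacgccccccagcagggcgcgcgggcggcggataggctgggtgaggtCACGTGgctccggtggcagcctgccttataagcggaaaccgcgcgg
Abca1: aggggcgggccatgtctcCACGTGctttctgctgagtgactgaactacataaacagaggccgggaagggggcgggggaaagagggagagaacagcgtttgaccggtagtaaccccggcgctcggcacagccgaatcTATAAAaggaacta

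Both strands of each 300-base window, from 250 bases before to 50 after the start, were searched. Of 32851 such windows in the RefSeq table, 4.36% held TCACNCCA, 7.15% CACGTG, 37.4% CCAAT and 13.6% TATAAA. An exact LXR element, a pair of AGGTCA half-sites in the same direction with 4 bases between them, was in 5 windows (0.0152%). None of the windows of the 7 genes searched, which do not include Npc1 and Abcg1, held it. A pair of half-sites with other letters would have been missed, so this absence cannot show that these promoters lack an LXR element. The Abca1 stretch shown holds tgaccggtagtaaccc, which on the opposite strand reads as such a pair, with 4 bases between. The exact search did not count it, and how many windows hold a looser pair was not counted. A single AGGTCA, which 16.3% of windows held, was found in the Insig1 window at -105 to -100, where it overlaps the E-box. Among the other windows, those of Scap held CACGTG and TATAAA, that of Npc2 held CCAAT on each strand, that of Soat1 held CCAAT, and that of Nr1h2 held none of these motifs. A match describes letters in a window and does not show that a factor binds there.

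The values of these genes mostly rose with age. Between P18 and 24 months 7 of the 9 rose and none fell (limma, adjusted over all 14987 genes tested, threshold 0.05), by 1.75-fold for Insig1 to 2.98-fold for Abcg1. Over all genes, 32.0% rose and 30.5% fell in that comparison. The median change of the 9 was 0.97 on the log2 scale and that of all genes -0.005. The 7 that rose were also the 7 whose P18 and 24-month samples did not overlap, and 66.1% of all genes were free of overlap between these ages. Npc2 and Nr1h2 did not pass. A moderated F test over the ages found the same 7 of 9 to differ at some age, where 77.4% of all genes did, a share close to that of the 9 genes. Npc2 also passed the F test under 5 alternatives given with its values, and with the length trend removed so did Nr1h2, which made 9 of 9.

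**Figure D1:**
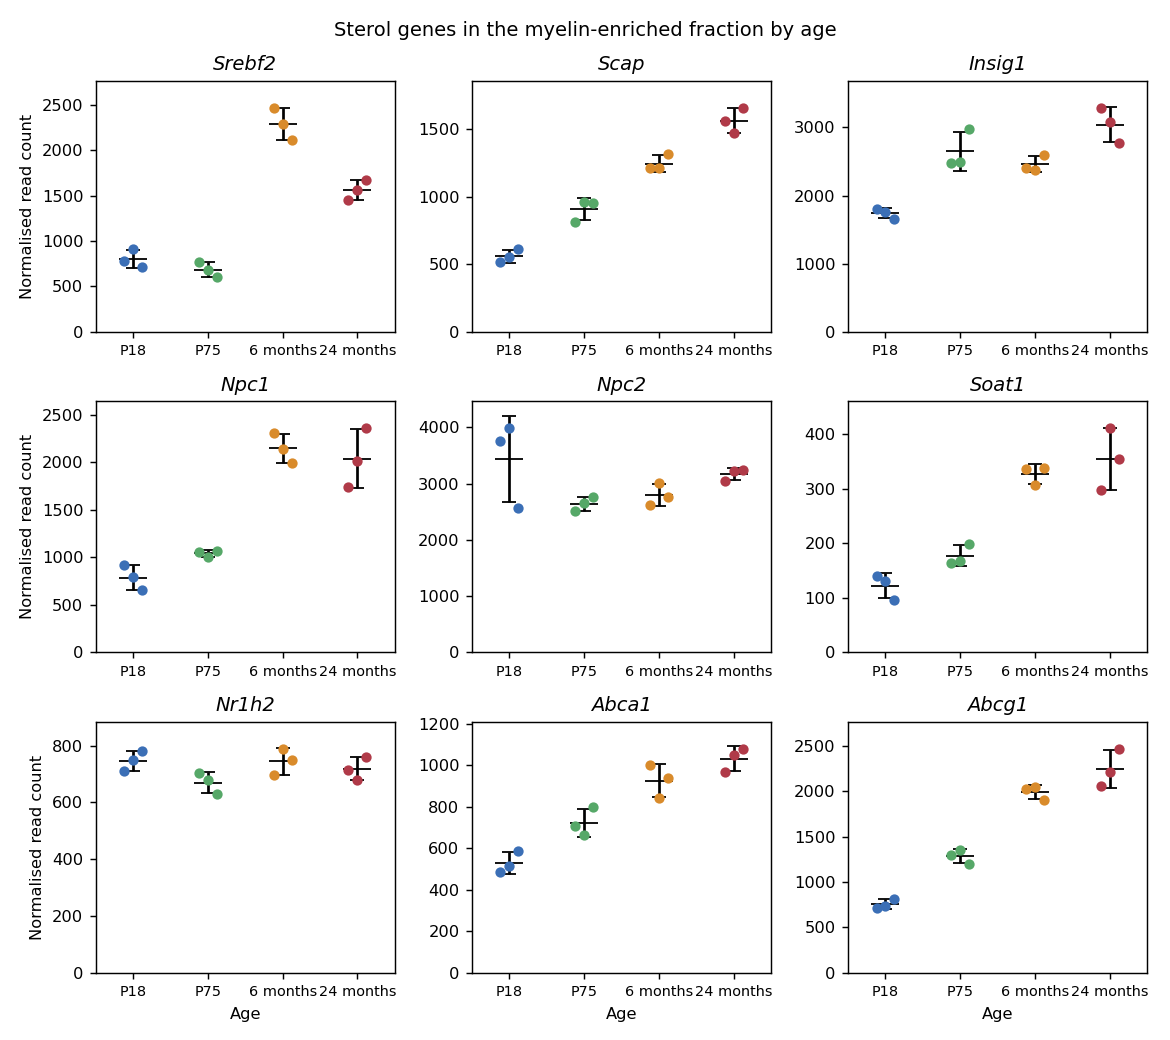
Normalised read counts (vertical axes, linear, from 0) of the 9 genes by age (horizontal axes), with 1 panel per gene, a point per sample, a horizontal line at the mean of 3 samples and error bars of 1 SD. Scap, Soat1, Abca1 and Abcg1 have a higher mean at each later age, Srebf2 is highest at 6 months (2115 to 2469), and Nr1h2 stays between 630.1 and 789.

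The steps between ages differed. From P18 to P75, 6 of the 9 rose and 1, Npc2, fell, with a median change of 0.45 (all genes 0.017). Of all genes, 21.7% rose and 18.7% fell at that step. From P75 to 6 months 6 rose and none fell, with a median of 0.46 (all genes 0.003), and 27.1% of all genes rose and 25.4% fell. From 6 to 24 months Scap and Insig1 rose and Srebf2 fell, with a median of 0.16 (all genes 0.03), and 10.8% of all genes rose and 8.34% fell. Sample ranges did not overlap for 7, 6 and 5 of the 9 genes at the 3 steps in turn, and for 47.1%, 62.3% and 43.2% of all genes. Adjacent steps have the middle age's samples in common and are not independent.

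**Figure D2:**
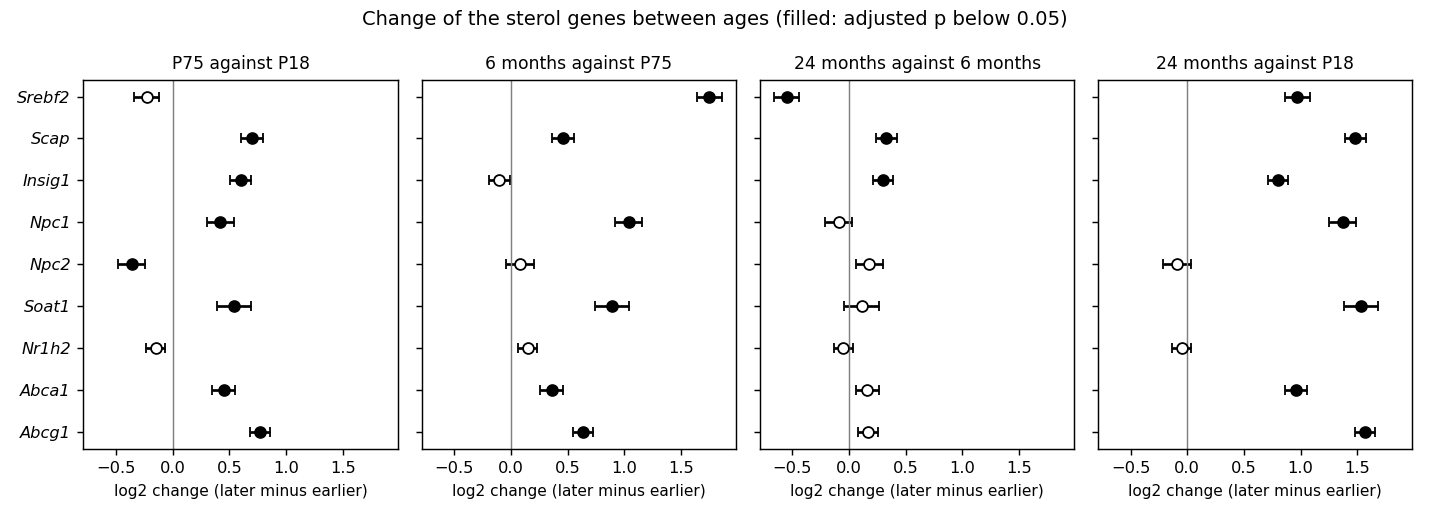
Log2 change of each of the 9 genes in the 4 comparisons of ages (horizontal axes, later minus earlier), with bars of 1 standard error and filled points where the limma adjusted p is under 0.05. Srebf2 from P75 to 6 months (1.75) lies farthest to the right among the 3 steps, and the points of Nr1h2 are open in all 4 comparisons.

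Srebf2, which encodes the transcription factor that drives genes of cholesterol synthesis and uptake, had a peak at 6 months. Its normalised read count was 777, 912 and 718 in the P18 samples, 768, 683 and 599 at P75, 2469, 2287 and 2115 at 6 months, and 1451, 1565 and 1672 at 24 months. The P18 and P75 samples overlapped, all 6-month samples lay above all others, and all 24-month samples lay between. From P75 to 6 months it rose 3.35-fold, a log2 change of 1.75 ± 0.11 (SE), with a limma adjusted p of 2e-08. Only this gene of the 9 fell after 6 months, to 0.682 of its 6-month mean (log2 change -0.55 ± 0.11, limma adjusted p = 0.0037). The level at 24 months was still 1.95-fold that at P18 (log2 change 0.97 ± 0.11, limma adjusted p = 9.3e-07). The change from P18 to P75, -0.23 ± 0.11 on the log2 scale, did not pass (limma adjusted p = 0.099), but it did pass without P18 replicate 3 (-0.31, limma adjusted p = 0.0308), without P75 replicate 1 (-0.32, limma adjusted p = 0.0414) and after removal of a trend with transcript length (-0.28, limma adjusted p = 0.0297).

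Scap, the escort of SREBP-2 and itself a sterol sensor, rose from age to age. The normalised read count was 515, 551 and 614 at P18, 813, 964 and 953 at P75, 1213, 1212 and 1317 at 6 months, and 1562, 1475 and 1659.7 at 24 months. No samples of neighbouring ages overlapped. The rise was 1.63-fold from P18 to P75 (log2 change 0.70 ± 0.093, limma adjusted p = 2.93e-05) and 1.37-fold from P75 to 6 months (0.46 ± 0.093, limma adjusted p = 0.000659). Over the whole span it was 2.80-fold (1.48 ± 0.093, limma adjusted p = 1.65e-09). The last step, 1.26-fold from 6 to 24 months, was 0.33 ± 0.093 (limma adjusted p = 0.0238). That call was lost with totals equalised without Mbp (limma adjusted p = 0.0563) and without 6-month replicate 1 (0.0821), 6-month replicate 2 (0.0794), 24-month replicate 1 (0.064) or 24-month replicate 3 (0.0804), although its direction did not change.

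Insig1, which retains SCAP in the endoplasmic reticulum and is itself a target of SREBP-2, had no step between P75 and 6 months that passed. Its normalised read count was 1797, 1763 and 1660.3 at P18, 2483, 2488 and 2979 at P75, 2407, 2381 and 2590.4 at 6 months, and 3285, 3076 and 2763 at 24 months. The P18 samples lay below all others, the P75 and 6-month samples overlapped, and the 24-month samples lay above those at 6 months. The rise from P18 to P75 was 1.52-fold (log2 change 0.60 ± 0.091, limma adjusted p = 9.19e-05). From P75 to 6 months, where Srebf2 rose, the change was -0.10 ± 0.091 (limma adjusted p = 0.357, 95% interval -0.30 to 0.09). From 6 to 24 months it was 0.30 ± 0.091, or 1.24-fold (limma adjusted p = 0.0304). That last call was lost with totals equalised without Mbp (limma adjusted p = 0.0591), with the length trend removed (0.0842), and without 6-month replicate 1 (0.0938) or 2 (0.0971) or 24-month replicate 1 (0.124) or 2 (0.0978).

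The genes of the sensing step changed their proportions with age. Per kilobase of exon, Srebf2 as a ratio to Insig1 was 0.245 ± 0.026 (SD, n = 3) at P18 and 0.139 ± 0.0293 at P75, then 0.496 ± 0.0569 at 6 months, before 0.275 ± 0.0436 at 24 months. As a ratio to Scap it was 1.20 ± 0.207, 0.633 ± 0.137, 1.53 ± 0.182 and 0.832 ± 0.0552 at the same ages in turn. In the ratio to Insig1 all P75 samples lay below, and all 6-month samples above, those of the other ages. In the ratio to Scap the means had the same low and high points, but the 6-month samples (1.34 to 1.69) overlapped those at P18 (0.974 to 1.38), and the P75 samples (0.524 to 0.786) those at 24 months (0.773 to 0.883). For comparison, Insig2, the second INSIG protein, which was picked for its role after its values had been seen, rose 2.33-fold from P18 to 24 months (log2 change 1.22 ± 0.11, limma adjusted p = 5.54e-08). Its mean normalised read count was 696.1 ± 66.7 (SD, n = 3) at P18 and 1624 ± 128 at 24 months, and Insig1 per kilobase was 2.75-fold Insig2 at P18 and 2.06-fold at 24 months.

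Npc1, the membrane protein through which cholesterol leaves lysosomes, rose to 6 months and had no later change that passed. The normalised read count was 916, 792 and 653 at P18, 1060.2, 1000.4 and 1068 at P75, 2306, 2144 and 1997 at 6 months, and 1739, 2012 and 2358 at 24 months. Samples of P18, P75 and 6 months did not overlap, while the 24-month samples spread across those at 6 months. The rise was 1.33-fold from P18 to P75 (log2 change 0.42 ± 0.12, limma adjusted p = 0.0109) and 2.06-fold from P75 to 6 months (1.04 ± 0.12, limma adjusted p = 4.02e-06). From 6 to 24 months the change was -0.09 ± 0.12 (limma adjusted p = 0.653, 95% interval -0.34 to 0.17). At 24 months it was 2.59-fold the P18 level (1.37 ± 0.12, limma adjusted p = 5.84e-08).

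Npc2, the soluble lysosomal protein that hands cholesterol to NPC1, did not rise. Its normalised read count was 3756, 3984 and 2572 at P18, 2513, 2654 and 2757 at P75, 2624, 3009.9 and 2755 at 6 months, and 3049, 3232 and 3244 at 24 months. The P18 samples split, with replicate 3 among the P75 samples and replicates 1 and 2 above every other sample. From P18 to P75 the mean fell to 0.768 of its value (log2 change -0.36 ± 0.12, limma adjusted p = 0.032). The F test over ages gave an adjusted p of 0.0539, just short of the threshold.

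The calls for Npc2 turned on single samples. Without P18 replicate 3 the fall from P18 to P75 was -0.55 (limma adjusted p = 5.78e-05), the F test gave an adjusted p of 6.54e-05, and the change from P18 to 24 months, -0.09 ± 0.12 with all samples, became -0.29 (limma adjusted p = 0.00701). Without P18 replicate 1 or 2 the P18 to P75 call was lost (limma adjusted p = 0.126 and 0.165), as it was without P75 replicate 1 (0.0964) or 2 (0.0673) and when only those ages were fitted (0.084). For the F test, edgeR gave 0.0297 and DESeq2 0.023 on the recovered reads, and limma gave 0.0296 with totals equalised without Mbp and 0.0242 with the length trend removed. Between the later ages the changes were 0.08 ± 0.12 (P75 to 6 months, limma adjusted p = 0.607) and 0.18 ± 0.12 (6 to 24 months, limma adjusted p = 0.311).

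The pair of lysosomal genes shifted against each other. The ratio of Npc1 to Npc2 per kilobase was 0.147 ± 0.0185 (SD, n = 3) at P18 and 0.25 ± 0.0148 at P75, against 0.487 ± 0.0585 at 6 months and a lower 0.404 ± 0.0504 at 24 months. The P18 samples (0.126 to 0.16) lay below those at P75 (0.238 to 0.266), and these below all samples at 6 and 24 months (0.36 to 0.555), which overlapped. P18 replicate 3, at 0.16, did not stand out in this ratio.

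Soat1, the enzyme that esterifies cholesterol for storage in lipid droplets, was the lowest of the 9 genes. Its normalised read count was 140.2, 129.9 and 96.4 at P18, 164, 168 and 199 at P75, 336, 306 and 339 at 6 months, and 298, 411 and 355 at 24 months. The samples of the first 3 ages did not overlap, and the 24-month samples enclosed those at 6 months. The rise was 1.45-fold from P18 to P75 (log2 change 0.54 ± 0.15, limma adjusted p = 0.00764) and 1.85-fold from P75 to 6 months (0.89 ± 0.15, limma adjusted p = 0.00012). Over the whole span it was 2.90-fold (1.53 ± 0.15, limma adjusted p = 1.65e-07), and the step from 6 to 24 months was 0.11 ± 0.15 (limma adjusted p = 0.654, 95% interval -0.21 to 0.42).

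Nr1h2, the oxysterol receptor, was the flattest of the 9 genes by the span of its means. Its normalised read count was 709, 748 and 779 at P18, 702, 678 and 630.1 at P75, 696, 789 and 749 at 6 months, and 714, 680.1 and 761 at 24 months. The P75 samples all lay below those at P18, by 0.15 ± 0.085 on the log2 scale (change of -0.15, limma adjusted p = 0.164), and all other pairs of ages in the comparisons overlapped. The F test over ages gave an adjusted p of 0.294, and 0.0483 with the length trend removed. The change from P18 to 24 months was -0.05 ± 0.085, with a 95% interval of -0.23 to 0.13 (limma adjusted p = 0.601). From P75 to 6 months it was 0.15 ± 0.085 (limma adjusted p = 0.146), and it passed with the length trend removed (0.23, limma adjusted p = 0.0233). Nr1h3, which encodes the related LXR-alpha and was picked for its role after its values had been seen, was far lower: Nr1h2 per kilobase was 7.95-fold Nr1h3 at P75 and 11.4-fold at P18. The F test for Nr1h3 gave an adjusted p of 0.188.

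Both efflux pumps rose from P18 to 24 months. Abca1, which moves cholesterol and phospholipid to lipid-poor apolipoproteins, had normalised read counts of 486, 515 and 587 at P18, 705, 663 and 798 at P75, 999, 842 and 936 at 6 months, and 965, 1049.9 and 1079 at 24 months. Only the samples at 6 and 24 months overlapped. It rose 1.36-fold from P18 to P75 (log2 change 0.45 ± 0.1, limma adjusted p = 0.00204) and 1.28-fold from P75 to 6 months (0.36 ± 0.1, limma adjusted p = 0.00655), a call that was lost with the length trend removed (0.14, limma adjusted p = 0.231). The transcript of Abca1 was the longest of the 9, at 10262 bases of exon. The rise from P18 to 24 months was 1.95-fold (0.96 ± 0.1, limma adjusted p = 3.96e-07), and the last step was 0.16 ± 0.1 (limma adjusted p = 0.281).

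Abcg1, which passes cholesterol on to lipidated particles, rose more than Abca1. Its normalised read count was 717, 731 and 816 at P18, 1298, 1352 and 1203 at P75, 2029, 2042 and 1909 at 6 months, and 2061, 2208 and 2469.7 at 24 months. The samples of no pair of ages overlapped. The rise was 1.70-fold from P18 to P75 (log2 change 0.77 ± 0.088, limma adjusted p = 7.38e-06) and 1.55-fold from P75 to 6 months (0.64 ± 0.088, limma adjusted p = 2.02e-05). From 6 to 24 months it was 0.17 ± 0.088 and did not pass (limma adjusted p = 0.185). From P18 to 24 months the rise was 2.98-fold (1.57 ± 0.088, limma adjusted p = 5.51e-10). Per kilobase, Abcg1 was 2.15 ± 0.0641 (SD, n = 3) times Abca1 at P18 and 2.70 ± 0.404 at P75. The ratio was 3.25 ± 0.338 at 6 months, close to the 3.27 ± 0.149 at 24 months, and all 24-month ratios lay above all P18 ratios.

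Levels of different genes can be compared only per length. Per kilobase of exon, Npc2 was the highest of the 9 at P18 (mean 1042 ± 230 normalised reads per kilobase, SD, n = 3), followed by Insig1 (645.1 ± 26.3). At P75 and 24 months Insig1 was first and Npc2 the next, without overlap between their samples, and at 6 months their samples overlapped. Srebf2 moved most in the order: it had rank 4 at P18 (158.0), above Npc1 (150.7) by less than the spread, rank 7 at P75 (134.6), rank 3 at 6 months (451.1 ± 34.9) and again rank 7 at 24 months (307.8). Its samples at 6 months overlapped those of Npc1 (411.3), and at 24 months those of Abcg1 (328.8). Nr1h2 had rank 3 at P18 (371.7) and P75 (334.1) and rank 5 at 6 months (371.3) and 24 months (358.1).

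At all 4 ages Abca1 and Soat1 came last, Abca1 at 51.6 and Soat1 at 14.6 normalised reads per kilobase at P18, and 100.5 and 42.3 at 24 months. Among the middle places, several genes overlapped their neighbour in the order. These were Srebf2, Npc1 and Scap at P18, and Scap, Npc1 and Abcg1 at P75. At 6 months they were Srebf2, Npc1 and Nr1h2, and separately Scap and Abcg1. At 24 months they were Npc1, Scap, Nr1h2, Abcg1 and Srebf2. The place of Soat1 rests on its length: with its annotated 2925-base transcript in place of the 8371-base one it would stand at 111.8 ± 6.18 at 6 months and 121.2 ± 19.3 at 24 months, above the mean of Abca1, while at P18 (41.8 ± 7.83) and P75 (60.5 ± 6.52) it would still be the lowest.

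**Figure D3:**
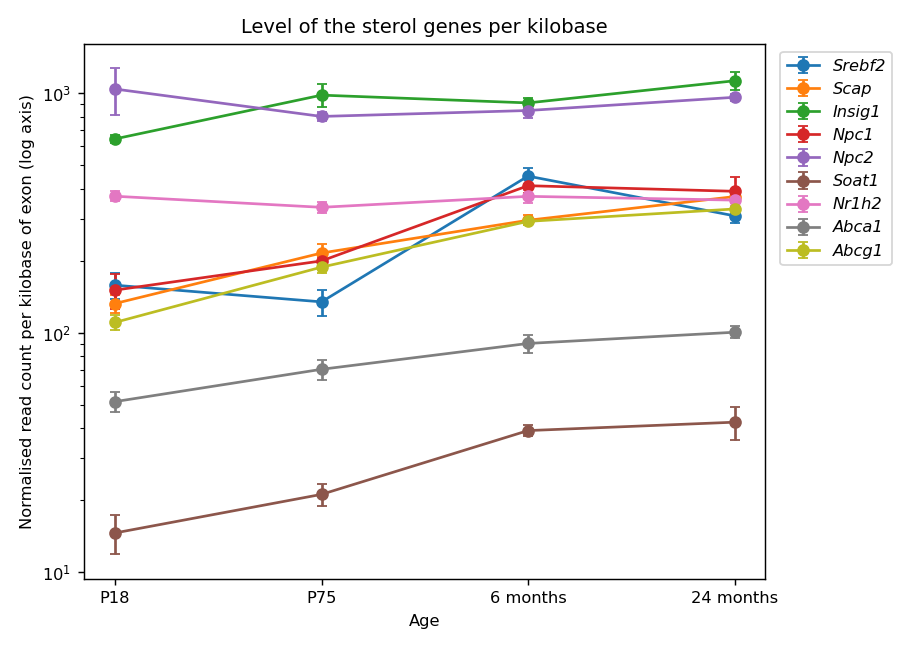
Normalised reads per kilobase of exon (vertical axis, log scale) of the 9 genes at the 4 ages (horizontal axis), with points for the mean of 3 samples and bars for the SD. Insig1 and Npc2 lie on top at every age, Soat1 lies at the bottom (14.6 at P18 and 42.3 at 24 months), and the line of Srebf2 has its peak at 6 months (451.1).

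The 12 other genes of the sensing machinery, which cut SREBPs, degrade INSIGs or bind SCAP, mostly rose, as Scap did: 11 of 12 rose and none fell from P18 to 24 months, with a median log2 change of 1.29 (all genes -0.005), where 32.0% of all genes rose. From P18 to P75 11 rose and none fell, where 21.7% of all genes rose. Srebf1, which encodes the SREBP that mainly drives fatty acid synthesis, rose from 445.8 ± 31.5 (SD, n = 3) at P18 to 1067 ± 43.5 at P75 and 1330 ± 111 at 24 months. Its change over the whole span was 1.57 ± 0.086 on the log2 scale, and Srebf2 per kilobase was 1.54 times Srebf1 at P18, 0.545 times at P75 and 1.42 times at 6 months (means of 3 samples). Erlin2, a membrane protein of the endoplasmic reticulum that takes part in the degradation of sterol-regulated proteins, rose by 1.35.

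Of 19 tested enzymes of cholesterol synthesis, known targets of SREBP-2, 11 fell (57.9%) and 1 rose from P18 to P75 (median -0.40), where 18.7% of all genes fell. From P75 to 6 months 9 rose (47.4%) and 2 fell (median 0.20), where 27.1% of all genes rose. From P18 to 24 months 6 rose (31.6%) and 7 fell (36.8%), with a median of -0.14, shares near the 32.0% and 30.5% of all genes. The count of those that fell over the whole span ranged from 7 to 11 over the alternative settings. The 7 that fell were the enzymes of the early steps to farnesyl pyrophosphate Acat2, Mvk, Pmvk, Mvd, Idi1 and Fdps, with Lss, the cyclase that makes lanosterol. Acat2 fell by 1.16 on the log2 scale, from 2002 ± 153 (SD, n = 3) to 891.9 ± 24.0, and Mvd, which makes isopentenyl pyrophosphate, fell by 1.66. Those that rose included Sqle, Tm7sf2, Sc4mol, Ebp and Sc5d, which act after farnesyl pyrophosphate. Hmgcs1 was listed at 0 in every library and was not tested.

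Of 12 lipoprotein receptors and their adaptors, which serve uptake, 8 rose (66.7%) and 2 fell (16.7%) from P18 to P75 (median 0.53), against 21.7% and 18.7% of all genes. From P18 to 24 months 7 rose (58.3%) and 2 fell (16.7%), with a median of 0.68, against 32.0% and 30.5%. The count of those that fell from P18 to P75 ranged from 0 to 2 over the alternative settings. Lrpap1, a chaperone of the receptor family, rose by 1.37 ± 0.085, the sorting receptor Sort1 by 1.23 ± 0.11 and the very low density lipoprotein receptor Vldlr by 1.07 ± 0.097 over the whole span. Mylip, a known LXR target that marks lipoprotein receptors for degradation and was picked for its role after its values had been seen, was among the genes that fell, by 0.47 on the log2 scale over the whole span (limma adjusted p = 0.000811).

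Around Npc1 and Npc2, of 20 genes of lysosomes and sterol carriers 4 rose (20%) and 3 fell (15%) from P18 to P75 (median 0.04), near the 21.7% and 18.7% of all genes. From P75 to 6 months 11 rose (55%) and 2 fell (10%), with a median of 0.30, against 27.1% and 25.4% of all genes. Over the whole span 9 rose (45.0%) and 2 fell (10%), with a median of 0.29, against 32.0% and 30.5%, and the count that fell ranged from 1 to 8 over the alternative settings. Lamp2, a lysosomal membrane protein, rose by 1.64 ± 0.14 over the whole span, and Tmem97, a regulator of NPC1 in the endoplasmic reticulum, rose by 1.06 ± 0.13 from P75 to 6 months (limma adjusted p = 5.27e-06). Osbpl1a, an oxysterol-binding protein of late endosomes, went down, up and down, as the means of Srebf2 did, with log2 changes of -0.61 ± 0.085, 1.14 ± 0.085 and -0.46 ± 0.085 at the 3 steps, all past the threshold (limma adjusted p = 4.79e-05, 8.4e-08 and 0.00288).

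All 10 other efflux transporters and apolipoproteins in the list rose from P18 to 24 months (median 1.29), where 32.0% of all genes rose. From P18 to P75 7 rose (median 0.52) and from P75 to 6 months 8 rose (median 0.58), against 21.7% and 27.1% of all genes, and none fell. Abca8a, a transporter of the same subfamily as Abca1, rose by 4.57 ± 0.2, from a mean of 22.4 ± 6.35 (SD, n = 3) to 552.2 ± 141. Abca5 rose by 1.51 ± 0.095, and Apod, an apolipoprotein of glia, by 2.11 ± 0.15, from 6396 ± 1430 to 27162 ± 1270. Apoe, the main lipid carrier of astrocytes and chosen for its role after its values had been seen, rose by 0.58 ± 0.14 (limma adjusted p = 0.00162), from 29802 ± 3060 to 44766 ± 5690.

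Near Soat1, 5 of 8 genes of sterol esters and lipid droplets rose (62.5%) and none fell from P18 to 24 months (median 0.89), against 32.0% and 30.5% of all genes. Nceh1, a hydrolase of cholesteryl esters, rose by 1.63 ± 0.1, from 933.9 ± 58.8 (SD, n = 3) to 2898 ± 133, as did Soat1, which makes them. Soat2, which also makes esters, and the hydrolase Lipe did not pass over this span (limma adjusted p = 0.443 and 0.668). Both were picked for their role after their values had been seen. The droplet coat gene Plin3 rose by 0.98 ± 0.12. Plin4, another coat gene, went up and down with wide spread, at 68.6 ± 59.5 (P18), 296.2 ± 144 (P75), 102.2 ± 41.7 (6 months) and 351.2 ± 180.0 (24 months). It rose by 2.57 ± 0.5 over the whole span (3.23 without P18 replicate 3), and its fall from P75 to 6 months, -1.46 ± 0.5 (limma adjusted p = 0.0217), was lost without P75 replicate 2 (0.107), P75 replicate 3 (0.0729), 6-month replicate 1 (0.0718) or 6-month replicate 3 (0.0789). Upstream of Nr1h2, all 6 listed enzymes that make or clear oxysterols rose over the same span (median 1.31), among them Cyp7b1 by 1.60 ± 0.12, Cyp27a1 by 1.28 ± 0.11 and Cyp46a1, the neuronal cholesterol 24-hydroxylase, by 1.13 ± 0.12. The count that rose ranged from 5 to 6 over the alternative settings. Ch25h, 1 of the 6, was near the floor at P18 (7.02 ± 6.22). The list of LXR partners and corepressors, which also holds Nr1h3 and the coactivators Ncoa1 and Med1, had 9 genes. None of them rose and 2 fell (22.2%) over the whole span (median -0.07), against 32.0% and 30.5% of all genes. The 2 that fell were Rxrb (-0.43 ± 0.082, limma adjusted p = 0.000211) and Rxra (-0.41 ± 0.11, limma adjusted p = 0.00408), both retinoid X receptors.

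**Figure D4:**
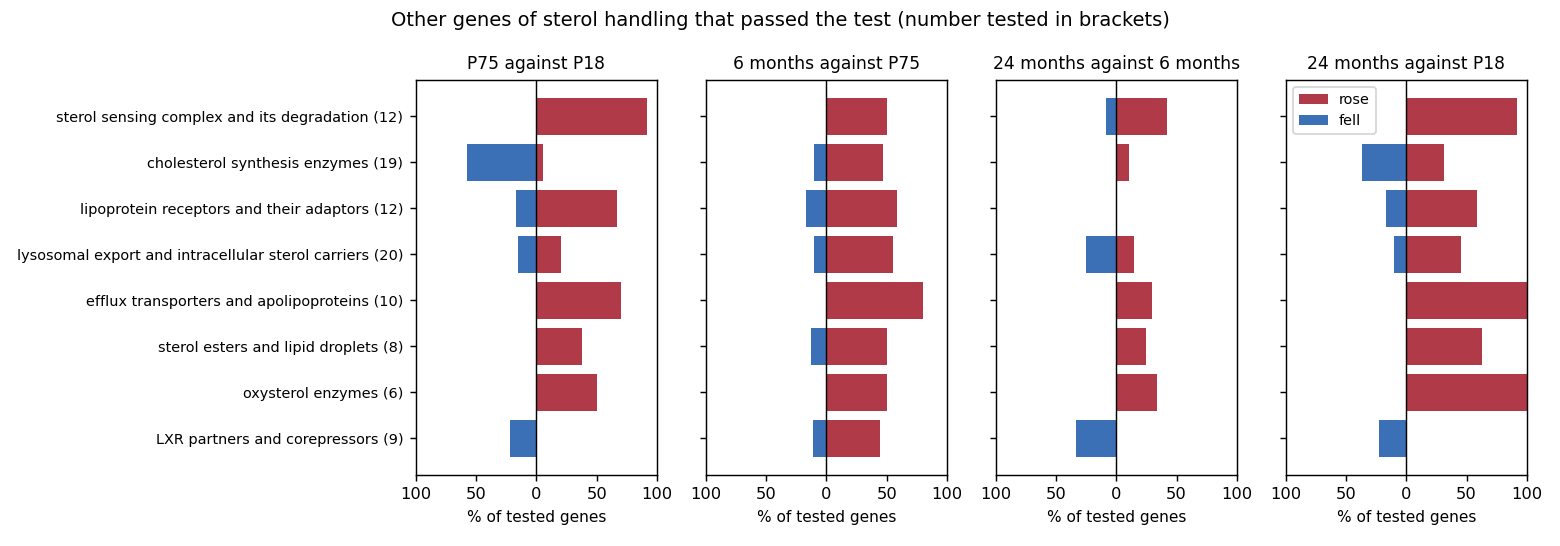
Share of the tested genes (horizontal axes, percent) that rose (red, right of 0) or fell (blue, left of 0) in each of the 8 pathway lists in the 4 comparisons of ages, by limma at an adjusted p of 0.05. From P18 to 24 months the bars of the sensing complex (11 of 12), efflux (10 of 10) and oxysterol enzymes (6 of 6) lie on the right only, and those of cholesterol synthesis on both sides (6 and 7 of 19).

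From 6 to 24 months, where 10.8% of all genes rose and 8.34% fell, 5 of 12 sensing genes rose (41.7%) and 1 fell. Among the lysosomal genes 3 of 20 rose and 5 fell (25.0%), and in the LXR list none of 9 rose and 3 fell (33.3%). In efflux 3 of 10 rose (30.0%), in esters 2 of 8 (25.0%) and in oxysterol enzymes 2 of 6 (33.3%), and none fell. Of the synthesis enzymes 2 of 19 rose (10.5%) and none fell, and of the 12 receptors and adaptors none rose or fell. These counts were the least stable under the alternative settings: of the 97 list counts that moved by over 1.5 times, 57 were from this step.

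Across the 12 samples the profiles of the 9 genes fell into a few shapes. Scap and Abcg1 had a Pearson r of 0.98, Npc1 and Soat1 0.975, Scap and Abca1 0.969, and Abca1 and Abcg1 0.964, on log2 values. Srebf2 correlated at 0.895 with Npc1 and at 0.334 with Insig1. Npc2 had an r of -0.311 to 0.181 with the others, and Nr1h2 one of -0.465 to 0.402. The 12 points share their 4 ages and their libraries, so these values describe likeness over age.

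The profiles were also set against those of all other tested genes, leaving out symbols of clones, pseudogenes and predicted models. Those most like Srebf2 were Scamp5 (r = 0.995) and Stim1 (0.992). For Scap they were Gpaa1 (0.995) and Npdc1 (0.992), for Insig1 Slc16a12 (0.984) and Tmem18 (0.98), and for Abca1 they included Slitrk5 (0.993). For Abcg1 they were Mboat7 (0.997) and App (0.995), for Npc1 Jkamp (0.994) and Ano10 (0.992), and for Soat1 Shisa2 (0.995) and Lamp2 (0.992). All are over the same 12 samples.

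Markers of other cells moved over the same ages. The sum of the 10 microglial markers was 6150.1 to 6939.8 at P18 and 8662 to 9544 at P75. It was 10227 to 11793 at 6 months and 15129 to 18581 at 24 months. Of the 10 markers, 9 rose and none fell over the whole span, where 32.0% of all genes rose. Those of choroid plexus and ependyma (6 markers) summed to 12563 to 14712 at P18 and 42652 to 47293 at 24 months, and those of mural cells and fibroblasts (8) to 858 to 1269 and 1939.7 to 2375. These sums were highest at 24 months, but those of mural cells and fibroblasts overlapped their 6-month range (1856.7 to 2053.8). The means of Scap, Insig1, Abca1, Abcg1 and Soat1 were also highest at 24 months. The part of these cells in the rise of these genes and of the efflux, oxysterol and ester lists was not tested. The oligodendrocyte sum without Mbp was 185860 to 247680 at P75, between 232850 and 322850 at 6 months and between 237560 and 267190 at 24 months. Of the 9 oligodendrocyte markers, 5 were lower and none higher at 24 months than at P18, where 30.5% of all genes fell. Precursor markers (6) summed to 4183 to 5083 at P75 and 6639 to 7722 at 6 months, and 5 of 6 rose at that step. Of the 10 neuronal markers 6 rose and 2 fell there, where 27.1% of all genes rose and 25.4% fell. The neuronal sum did not rise, at 207910 to 230750 at P75 and 204350 to 211870 at 6 months. Srebf2 and Npc1 rose at the same step. Npc1 also rose from P18 to P75, where 1 precursor marker rose and 2 fell. The part of these cells in the changes of Srebf2 and Npc1 was not tested. Endothelial markers (8) summed to 621 to 882 over all ages. No defining marker of any of these lists was at 0 in all samples.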

How the data were processed

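RNA-seq of the 12 samples (4 ages, 3 each) was analysed from a deposited table of signal values, gene read counts which the authors had scaled with a size factor for each sample. Per the submitters' processing notes, TopHat, HTSeq, DESeq and the build mm9 were used, with versions, strand setting and batches not given in the sources used here. In every column 100% of values under 200, and at least 99.97% of all values, were whole multiples of 1 step within 0.0061. This gave back whole reads (20299052 to 27214385 per sample). Without a stated strand setting, reads of overlapping genes cannot be told apart.

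Genes with a value of at least 10 in at least 3 of 12 samples were tested (14987). Log2(value + 1), which understates changes of low genes, was fitted with limma 3.58.1 (R 4.3.3, mean-variance trend, all 4 ages sharing 1 estimate of spread). Tests were two-sided, with Benjamini-Hochberg adjustment over all genes tested and a threshold of 0.05. edgeR 4.0.16 and DESeq2 1.42.0 on recovered reads were alternatives, with other pseudocounts, filters, scalings, sample sets, a replicate block and each sample left out. The scripts were tested on simulated data. All replicate pairs differed by more than sampling noise (chi-square per degree of freedom 9.17 to 131.2), so none was merged. Same-numbered samples did not deviate together (r from -0.185 to 0.165), so the numbers were not taken as pairs.

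The 9 genes, 8 pathway lists and 8 marker lists were chosen with earlier results of these data known. Up to 3 genes per list with a mean of at least 50 and the lowest F-test p are named, and the 2 genes most like each of the 9 that passed. Genes named to account for the members of a small count, and those chosen for a role, are outside that rule and were chosen after their values were seen. Exon lengths (union of exons) are from GENCODE vM21 and promoters from RefSeq on GRCm38.p6. They matched 9 and 7 of the 9 genes. Some genes of these lists are counted but not reported by name here.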

Additional observations from a re-analysis of the deposited data

How the results depend on the processing

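Under 23 alternative settings, 26 of the 36 changes of the 9 genes (4 comparisons each) kept their call and direction, and of 828 values 802 kept both, 17 lost the call, 5 gained it and 4 turned direction. None of those 4 passed in either fit. Npc2 from P75 to 6 months became -0.02 with the length trend removed, Npc2 from P18 to 24 months ranged from -0.29 to 0.03 when a sample was left out, Npc1 from 6 to 24 months from -0.20 to 0.02 and Soat1 from -0.01 to 0.22. The 2 genes that rose from 6 to 24 months were 0 with totals equalised without Mbp, 1 with the length trend removed and 0 to 2 when a sample was left out. The 1 that fell from P18 to P75 became 2 with the length trend removed, 0 when only those ages were fitted and 0 to 2 when a sample was left out. The count that fell from P18 to 24 months, 0 with all samples, was 0 to 1, with 1 (Npc2) without P18 replicate 3. The cause was not tested. With the replicate block, 6 of the 9 rose from P18 to P75 and 1 fell, and no call on them changed.

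Over all genes, the 1626 that rose and 1250 that fell from 6 to 24 months became 787 and 492 without 6-month replicate 1, 841 and 658 without 6-month replicate 2, 972 and 555 without 24-month replicate 1 and 704 and 540 without 24-month replicate 2, and 1059 rose with the length trend removed. The rising share of calls was 56.5% there, but 44.9% with totals equalised without Mbp and 42.3% with the length trend removed, and from P18 to 24 months 51.3% and 40.5% with the length trend removed. The median change of all genes from P18 to 24 months, -0.005, became -0.145 under that removal and -0.114 with quantile normalization. Of 1472 counts over pathway lists, 97 moved by over 1.5 times, 57 of them from 6 to 24 months. Depth limits Soat1 most.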
